A study of Mus musculus with 6 samples.

Results

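The amino acid transporter genes described here are the rows of the liver count table whose symbols belong to the solute carrier families Slc1, Slc3, Slc6, Slc7, Slc36, Slc38 and Slc43, other than Slc7a11. Of 26608 rows in the table, 63 matched the symbol pattern, and the 41 with at least 10 counts summed over the 6 mice were kept. Next to that limit lay Slc7a3 with 10 counts and Slc1a1 with 15, both kept, and Slc1a7, Slc38a5 and Slc6a17 with 9 each, which were left out. Not every kept gene carries amino acids. Slc6a8 carries creatine, Slc6a12 mainly betaine, Slc6a4 serotonin and Slc43a3 purine bases, Slc3a1 and Slc3a2 encode the heavy chains that bring Slc7 light chains to the membrane, and Slc7a6os, caught by its symbol, is a neighbour of Slc7a6 that encodes no transporter.

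RNA was taken from the livers of 6 mice aged 6 weeks, 3 labelled LiK and 3 labelled LiKM, and sequenced after selection of messenger RNA. The labels give the genotypes only by these names. In the published work on these mice, a source other than the labels, LiKM hepatocytes lack Mdm2, the ubiquitin ligase that keeps p53 low, and LiK hepatocytes keep it. The labels name neither the driver of recombination nor the sex of the mice, and no wild-type liver was analysed here.

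Amino acid carriers of the liver take up the alanine, glutamine, arginine and glycine that arrive in portal blood and feed them to the urea cycle, gluconeogenesis and protein synthesis. System A and system N carriers of the Slc38 family use the sodium gradient, Slc7a2 admits cationic amino acids, and most light chains of the Slc7 family exchange one amino acid for another in complex with a heavy chain. Their use is zoned along the liver lobule, where a narrow band of hepatocytes around the central vein makes glutamine from glutamate and ammonia and takes up glutamate through Slc1a2.

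Libraries held between 19909993 and 24874343 counts over 16847 to 17472 detected genes, so counting error was small for the abundant carriers and large for those with a few counts. Mdm2 lay between 28.6 and 29.0 CPM (counts scaled to library size with TMM factors) in LiK and at 122, 125 and 60.5 CPM in LiKM. The count sums all exons, and Mdm2 is itself a p53 target, so this does not check the deletion. Summed CPM of 12 hepatocyte markers ranged from 152471 to 172401 in LiK and from 150256 to 169613 in LiKM, with 0 members called by edgeR, 3 of 12 at an unadjusted p under 0.05, 1 called lower by DESeq2 and 0 by limma-voom. Those 3 were lower in LiKM: Cyp2e1, Serpina1a and Hnf4a (log2 fold change −0.81, −0.57 and −0.48). Of the 12 log2 fold changes, 3 were positive and 9 negative, with a median of −0.24. Alb, at means of 90851 CPM in LiK and 97163 in LiKM, made up much of the sums. Markers of some other cell types differed more. For T and natural killer cells edgeR called 10 of 11 tested markers higher (summed range 3.86 to 6.93 CPM in LiK, 16.2 to 22.9 in LiKM). Cd4 was not called (log2 fold change −0.94), and Cd3e, Nkg7 and Prf1 were at 0 in at least 1 LiK library. Of the called markers, Cd3e, Cd3d, Cd3g, Cd8a, Cd8b1, Lck, Nkg7, Gzmb and Prf1 had at most 8 counts in each LiK library. That lies under the level of edgeR's filter on low counts. They therefore entered the test through LiKM, where they were high, and the filter favoured their direction. For macrophages and monocytes 7 of 12 were called higher (221 to 273 CPM, then 339 to 412), and all 12 were positive at an unadjusted p under 0.05. Among them Gpnmb, called, with 2, 8 and 3 counts in LiK, and Trem2, not called, with 3, 11 and 7, also entered through LiKM. For stellate cells and fibroblasts 4 of 10 were called higher (244 to 402 CPM, then 647 to 705), and all 10 were positive at that p. For dividing cells 8 of 8 were called higher (9.71 to 19.2 CPM, then 68.1 to 86.3), of which Bub1, with 12, 3 and 2 counts in LiK, entered through LiKM. EdgeR called 0 of 5 tested markers of B and plasma cells, 4 of neutrophils, 8 of endothelial cells, 5 of cholangiocytes and 5 of red cell precursors. At an unadjusted p under 0.05 these had 0, 0, 3, 3 and 0. For comparison with all these marker counts, edgeR called 5.92% of the 13537 genes tested, and 22.4% lay at that p. With so few markers, 0 calls does not set a list apart from that share. These are counts of bulk tissue, in which fewer cells of a type and less RNA per cell cannot be told apart, and the part of other cell types in the changes below was not tested.

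The carrier transcripts of these livers were dominated by few genes. Compared per kilobase of exon (exon lengths from GENCODE M21, which may differ from the annotation the authors used), the highest mean level over the 6 mice was that of Slc38a3, the system N carrier of glutamine and histidine, at 328 CPM per kb. Slc38a4, a system A carrier that also takes cationic amino acids and is imprinted in the mouse, followed at 207 CPM per kb. Slc6a13, which carries GABA and taurine, had 88.5 and Slc7a2, the main cationic carrier of hepatocytes, 66.1 CPM per kb. Slc6a13 and Slc7a2 overlapped between libraries, as did Slc38a2 (30.5) and Slc6a12 (24.6), so neighbours this close in the order were not set apart by their spread. On the CPM scale, Slc38a3, Slc38a4 and Slc7a2 together made up 62.6% to 74.6% of the summed level of the 41 genes in each library. That sum was 5380, 4337 and 5954 CPM in LiK and 4573, 3775 and 3326 CPM in LiKM, and the genotypes overlapped.

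**Figure D1:**
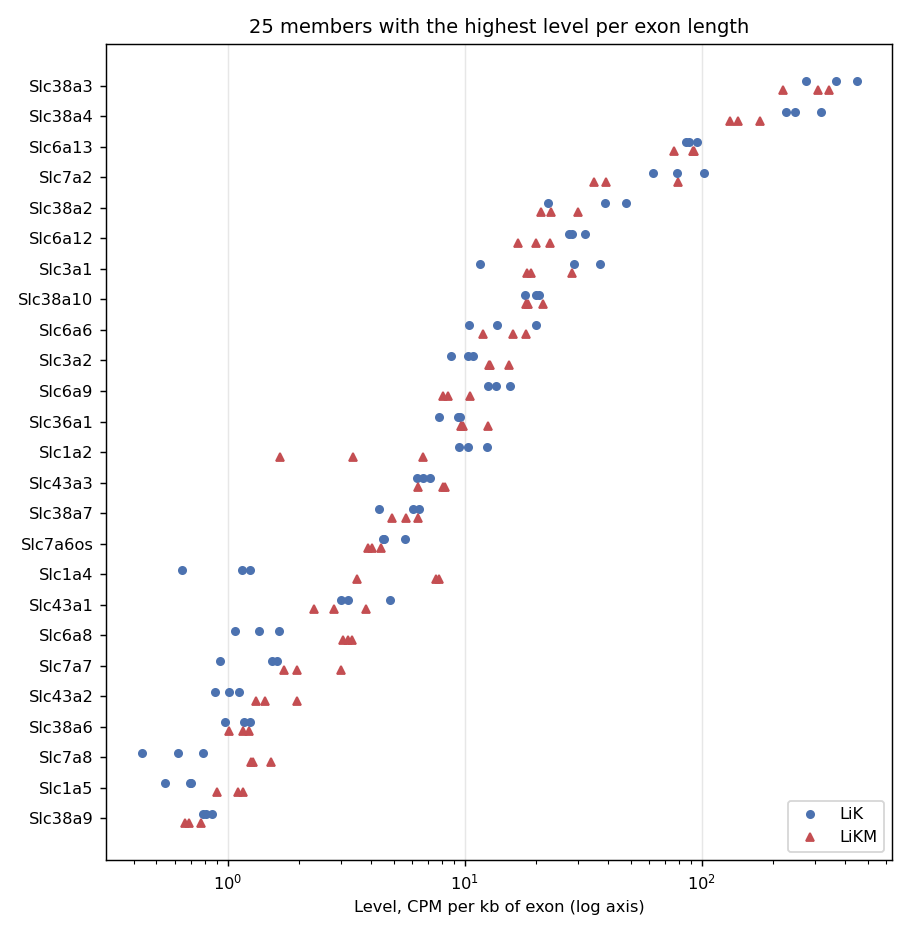
Level of the 25 members with the highest mean per exon length, in CPM per kb on a log axis, with 1 point per mouse (blue circles LiK, red triangles LiKM). Slc38a3 and Slc38a4 lead at means of 328 and 207 CPM per kb, and Slc1a4 and Slc1a2 show the largest ratios between the genotype means.

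At the other end, several carriers of gut and kidney were close to absent. Slc6a19, the main neutral carrier of intestine and kidney, had 5 counts over all 6 libraries, and its membrane partner Cltrn (row Tmem27) had 3. Slc7a9, the light chain that pairs with the heavy chain Slc3a1 in kidney and intestine, had 2 counts in LiK replicate 1 and 0 in the other 5 libraries, which for a library with 0 allows up to 3 counts. Slc7a13, another partner of Slc3a1, had 5 counts in all. Slc3a1 itself was well detected at 65.6, 84.1 and 26.3 CPM in LiK and 43.1, 41.6 and 64.1 CPM in LiKM. On GENCODE M21, 26.5% of its exon length overlaps exons of Prepl on the opposite strand (37.8 ± 7.65 CPM in LiK, SD, n = 3), and the strand setting of the counting is not given in the sources used here, so its level is uncertain.

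Carriers were called higher in 3 cases and lower in 2. Of the 41 genes, 35 passed edgeR's filter on low counts, while Slc1a1, Slc1a3, Slc6a4, Slc7a10, Slc7a15 and Slc7a3 did not. Slc6a7 and Slc7a6 reached the filter's level in 3 LiKM libraries but in 0 and 1 LiK libraries, so they entered the test through the genotype in which they were high. In edgeR's quasi-likelihood test over 13537 genes with Benjamini-Hochberg adjustment, Slc1a4, Slc6a8 and Slc7a8 rose and Slc38a4 and Slc6a9 fell in LiKM (adjusted p under 0.05). This was 8.57% of the tested members higher and 5.71% lower, where over all genes tested 5.11% were called higher and 0.813% lower, and 5 of 35 members (14.3%) in either direction against 5.92%. At an unadjusted p under 0.05 lay 14 members (40.0%) against 22.4% of all genes. Genotypes did not overlap in 18 of the 35 tested members (51.4%), Slc6a7 and Slc7a6 among them, against 29.6% of all genes tested. The median log2 fold change was 0.0054 over the tested members and −0.0034 over all genes, with 19 members positive and 16 negative.

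**Figure D2:**
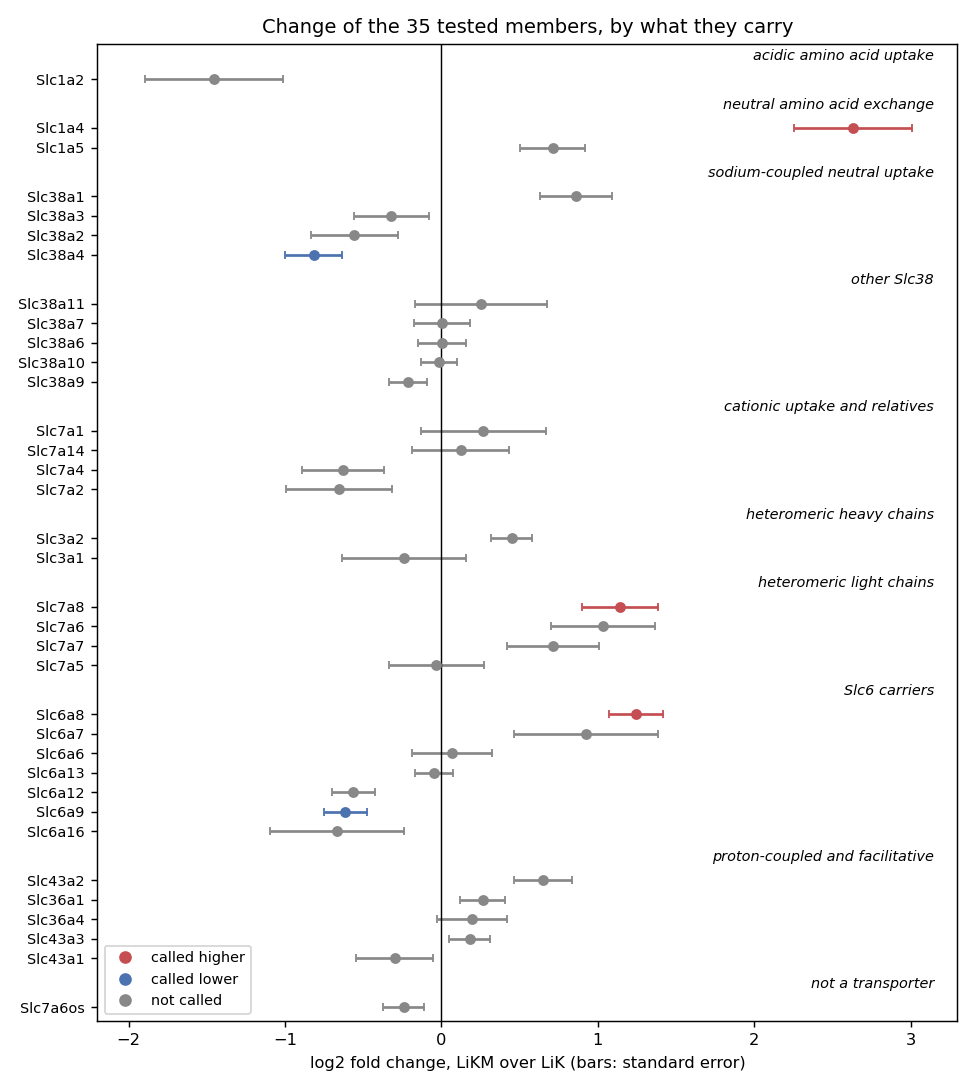
Log2 fold change of LiKM over LiK with its standard error for the 35 tested members, grouped by what they carry, with red for called higher, blue for called lower and grey for not called. Slc1a4 stands farthest to the right at 2.63, and Slc1a2 farthest to the left at −1.45 with a wide error and no call.

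With 2 mice left in a genotype, each of the 5 genes kept its direction but lost its call in at least 3 of the 6 omissions of a library. Without LiK replicate 1, LiK replicate 2 or LiKM replicate 2, edgeR called 0 members in either direction, with 8, 7 and 8 members higher and 4, 5 and 5 lower at an unadjusted p under 0.05. In the same omissions the calls over all genes fell from 692 higher and 110 lower to 26, 18 and 44 higher and 5, 1 and 3 lower. Without LiK replicate 3, LiKM replicate 1 or LiKM replicate 3, Slc1a4 and Slc6a8 were called each time, and Slc1a2 and Slc6a9 were called lower without LiKM replicate 1. Over the 6 omissions the log2 fold change lay between 2.39 and 2.89 for Slc1a4, 1.10 and 1.40 for Slc6a8, 0.95 and 1.35 for Slc7a8, −0.98 and −0.67 for Slc38a4, and −0.77 and −0.53 for Slc6a9. Slc7a8 and Slc38a4 lost their call in each of the 6 omissions. DESeq2 and limma-voom called the same 5 genes with all libraries and added some, among them Slc6a12.

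The largest change was in Slc1a4, which encodes an exchanger of alanine, serine and cysteine known as ASCT1. It had 2.50, 4.88 and 4.51 CPM in LiK and 13.7, 30.5 and 29.7 CPM in LiKM, so each LiKM mouse lay above each LiK mouse and LiKM 1 was the lowest of its genotype. The log2 fold change was 2.63 (SE 0.38), or 6.20-fold (edgeR Benjamini-Hochberg adjusted p = 0.0184). Slc1a4 was the only member that edgeR called when changes were tested against 1.5-fold. Its relative Slc1a5, the glutamine exchanger ASCT2, is known as a carrier of dividing cells. Slc1a5 had 2.89, 2.92 and 2.26 CPM in LiK and 4.60, 3.77 and 4.82 CPM in LiKM, without overlap, and did not pass edgeR's test (log2 fold change 0.71, SE 0.21, adjusted p = 0.1001). With scaling by library totals alone, Slc1a5 was called (0.87, edgeR adjusted p = 0.0471).

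The glutamate carrier Slc1a2, known as GLT-1, pointed the other way and varied widely in LiKM. Its levels were 163, 135 and 124 CPM in LiK and 87.5, 21.9 and 44.5 CPM in LiKM, again without overlap between the genotypes. With all libraries edgeR made no call (log2 fold change −1.45, SE 0.44, adjusted p = 0.108), but Slc1a2 was called without LiKM replicate 1 (−2.11, edgeR adjusted p = 0.036) and by DESeq2 with all libraries (−1.48, adjusted p = 0.00613). LiKM 1 thus had the lowest Slc1a4 and the highest Slc1a2 of its genotype. The epithelial and glial glutamate carriers Slc1a1 and Slc1a3 were scarce, with 15 and 39 counts over the 6 libraries.

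**Figure D3:**
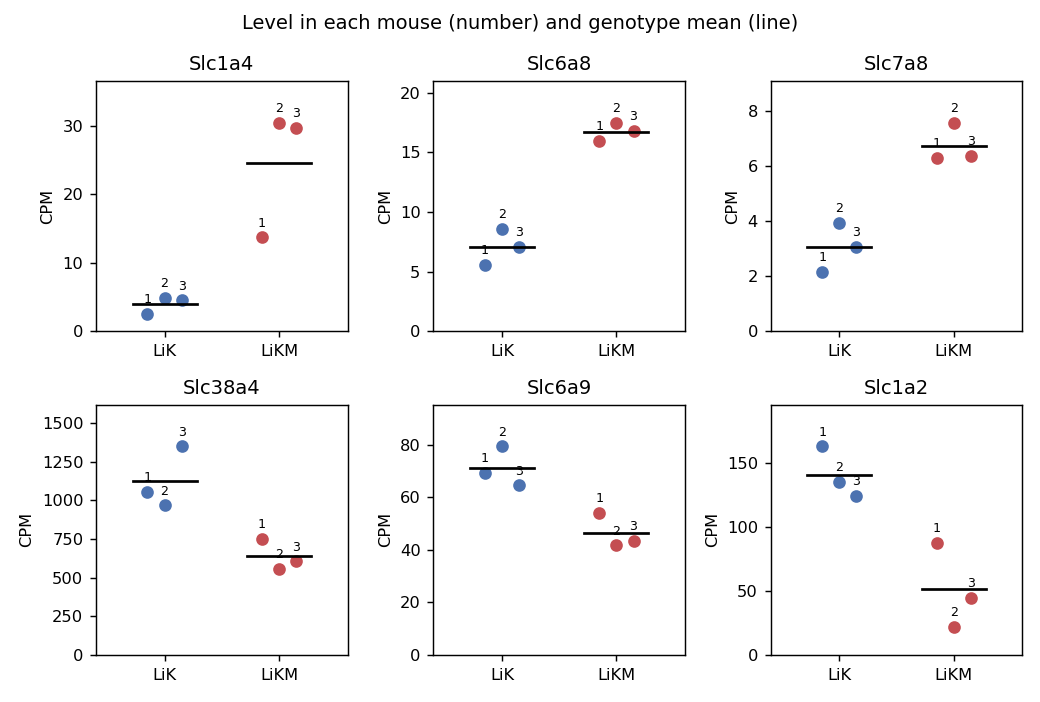
Level in CPM of the 5 called members and of Slc1a2 in each mouse (points, numbered by replicate) with the genotype mean (line), each panel starting at 0. In all 6 panels the genotypes are separate, and LiKM 1 is the LiKM mouse nearest to LiK, by a narrow margin for Slc7a8 (6.30 against 6.36 CPM).

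The promoters of Slc1a4, Slc7a8 and Slc1a2 are shown as those of 2 called genes and of the uncalled Slc1a2, each with a single start in the RefSeq table (build GRCm38.p6). Of the other called genes, Slc38a4 and Slc6a9 have 3 starts each and Slc6a8 has no entry. Each sequence covers 250 bases before and 25 bases after the start. Capitals mark a match, on either strand, to 1 of 4 motifs: the core of the amino acid response element bound by ATF4 (TGATGNAA), the AP-1 element (TGANTCA), the E-box (CACGTG) or the TCF element of Wnt signalling (CTTTGAT). No matches overlapped in these windows.
Slc1a4, chr11:20332689-20332963, minus strand: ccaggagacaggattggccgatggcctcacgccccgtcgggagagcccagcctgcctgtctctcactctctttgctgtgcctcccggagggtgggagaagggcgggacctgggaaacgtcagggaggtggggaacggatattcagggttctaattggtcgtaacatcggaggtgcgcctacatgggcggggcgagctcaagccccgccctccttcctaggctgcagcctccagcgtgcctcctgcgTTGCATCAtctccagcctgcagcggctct
Slc7a8, chr14:54781862-54782136, minus strand: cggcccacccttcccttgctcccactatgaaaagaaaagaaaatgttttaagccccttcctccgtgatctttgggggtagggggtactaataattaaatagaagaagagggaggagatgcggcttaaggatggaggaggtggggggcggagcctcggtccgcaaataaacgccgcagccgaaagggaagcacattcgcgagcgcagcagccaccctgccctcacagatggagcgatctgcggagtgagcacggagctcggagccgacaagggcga
Slc1a2, chr2:102706188-102706462, plus strand: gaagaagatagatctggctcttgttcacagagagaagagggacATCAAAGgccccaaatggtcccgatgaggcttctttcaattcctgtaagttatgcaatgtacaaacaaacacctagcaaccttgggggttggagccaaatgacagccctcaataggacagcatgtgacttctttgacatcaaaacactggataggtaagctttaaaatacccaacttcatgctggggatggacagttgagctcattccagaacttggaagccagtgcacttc
The capitals in Slc1a4 match the ATF4 core on the reverse strand and span the start, from 4 bases before it to 4 bases past it. This core occurs in 3.74% of the 32851 windows of the same length in the table and, among the 30 members with an entry, in Slc1a4 and Slc7a7. Capitals in Slc1a2 match the TCF element, which 3.53% of all windows hold. Among the members it occurs in 5 of 48 windows, those of Slc1a2, Slc38a10, Slc38a9, Slc6a16 and Slc7a1, none of which edgeR called. The Slc1a2 window belongs to an internal start of the gene, and longer transcripts in GENCODE M21 begin upstream of it. In the Slc7a8 window none of these letters was found. The AP-1 element and the E-box occur in 7.35% and 6.68% of all windows. A match describes the letters and shows no binding, and the window was widened past the start after the Slc1a4 sequence had been seen.

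Genes of the amino acid response, which ATF4 switches on when amino acids are short, gave 1 call. In edgeR's test 1 of 27 genes rose, none fell and 26 were not called, with 5 at an unadjusted p under 0.05. Over all genes tested, 5.92% were called and 22.4% lay at an unadjusted p under 0.05. DESeq2 also called 1 higher and limma-voom 2, and neither called any lower. The one that rose was Atf3, an immediate stress factor that is also induced by p53, from a mean of 1.30 CPM in LiK to 4.88 in LiKM (log2 fold change 1.90, SE 0.28, edgeR adjusted p = 0.0197). The other 4 at an unadjusted p under 0.05 also had higher means in LiKM and were not called: Wars (log2 fold change 0.43, SE 0.11), Pck2 (0.69, SE 0.26) and Vldlr (1.09, SE 0.42) without overlap, and Sesn2 (0.65, SE 0.23) with overlap. Atf4 itself had means of 51.9 and 53.4 CPM. Asns, the asparagine synthetase that is a standard target, averaged 4.78 CPM in LiK and 2.58 in LiKM, and Chac1 at 6.20 and 2.93 CPM, both not called. Over the list, the median log2 fold change came to 0.04. None of the 35 tested genes of amino acid sensing by mTORC1 was called by edgeR, with 4 at an unadjusted p under 0.05. DESeq2 and limma-voom called 1 each, higher in LiKM. Of the 35 log2 fold changes, 12 were positive and 23 negative. The largest was that of Rragd, from a mean of 1.47 CPM to 3.14 (1.09, SE 0.28), without overlap and without an edgeR call. Among the most abundant genes of this list, Tsc2 had 57.4 and 53.1 CPM and Mtor 54.1 and 49.9 CPM.

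Sodium-coupled carriers of neutral amino acids held the most abundant call. Slc38a4 fell from 1056, 967 and 1349 CPM in LiK to 751, 558 and 605 CPM in LiKM, with no overlap. Its log2 fold change was −0.82 (SE 0.18, edgeR adjusted p = 0.0469), close to the threshold, and scaling by upper quartile or library totals gave adjusted p of 0.0512 and 0.0673. Slc38a3 was not called, at 1944, 1444 and 2373 CPM in LiK and 1820, 1637 and 1159 CPM in LiKM (−0.32, SE 0.24). Slc38a2, the system A carrier that responds to amino acid supply, also overlapped between genotypes, at 344, 198 and 422 CPM and then 265, 185 and 205 CPM (−0.56, SE 0.28, not called). The order of the LiK mice was the same in these 3 genes, with LiK 3 highest and LiK 2 lowest.

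Slc38a1, the system A carrier of brain and of proliferating cells, was scarce and lay higher in each LiKM mouse, at 1.30, 1.71 and 1.40 CPM in LiK and 2.40, 2.90 and 2.70 CPM in LiKM (log2 fold change 0.86, SE 0.23, edgeR adjusted p = 0.079). It was not called. The remaining Slc38 members act on lysosomes or are little studied. Slc38a9, the arginine sensor that signals to mTORC1, had 14.3, 13.1 and 13.5 CPM in LiK and 11.0, 11.5 and 12.8 CPM in LiKM (−0.21, SE 0.12, not called). Slc38a10, Slc38a7, Slc38a6 and Slc38a11 had log2 fold changes between −0.01 and 0.25, and none was called.

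Among cationic carriers the abundant one was variable. Slc7a2 had 933, 567 and 718 CPM in LiK and 726, 361 and 320 CPM in LiKM, so LiKM 1 lay within the LiK range (log2 fold change −0.66, SE 0.34, edgeR adjusted p = 0.308). Slc7a1, its widely expressed relative, was near the detection limit at 0.590 CPM to 1.40 CPM over the 6 mice, and Slc7a3 had 10 counts in all. The relatives Slc7a4 and Slc7a14 are of unsettled transport function. Slc7a4 lay at 2.17, 2.42 and 2.42 CPM in LiK and 1.55, 1.86 and 1.11 CPM in LiKM (−0.63, SE 0.26, edgeR adjusted p = 0.217), and Slc7a14 overlapped between genotypes (0.12, SE 0.31). On GENCODE M21, exons of P2rx6 on the opposite strand overlap 13.3% of the exon length of Slc7a4, but P2rx6 did not pass the filter on low counts.

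Heteromeric exchangers showed a call in a light chain. Slc7a8, the light chain LAT2 for neutral amino acids, rose from 2.17, 3.93 and 3.08 CPM in LiK to 6.30, 7.58 and 6.36 CPM in LiKM, a log2 fold change of 1.14 (SE 0.24, edgeR adjusted p = 0.0421). The heavy chain Slc3a2, known as CD98hc, had 36.4, 38.1 and 30.9 CPM in LiK and 44.5, 45.2 and 54.2 CPM in LiKM, without overlap and without a call (0.45, SE 0.13, edgeR adjusted p = 0.0952). With scaling by library totals alone, Slc3a2 was called (0.61, edgeR adjusted p = 0.0317).

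Other light chains differed among themselves. Slc7a5, the light chain LAT1 of growing and activated cells, overlapped fully at 1.83, 3.47 and 3.20 CPM in LiK and 3.29, 2.81 and 2.22 CPM in LiKM (log2 fold change −0.03, SE 0.30, not called). Slc7a7, a light chain prominent in macrophages and in kidney and gut, had 3.08, 5.08 and 5.33 CPM in LiK and 6.48, 5.72 and 9.98 CPM in LiKM (0.71, SE 0.29, edgeR adjusted p = 0.21). On GENCODE M21, exons of Oxa1l on the opposite strand overlap 7% of its exon length, and Oxa1l had means of 45.4 CPM in LiK and 40.2 in LiKM. With the strand setting not given, the Slc7a7 level is uncertain. Macrophage markers were higher in LiKM, as given above, and their part in the Slc7a7 level was not tested. Slc7a6 had 12, 7 and 9 counts in LiK and 17, 20 and 20 counts in LiKM (1.03, SE 0.33, edgeR adjusted p = 0.123). Slc7a6os, its neighbour, lay at 16.5 CPM to 23.6 CPM over the 6 mice (−0.24, SE 0.13, not called).

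Among the Slc6 carriers, that of creatine rose and that of glycine fell. Slc6a8, which brings creatine into cells, had 5.59, 8.56 and 7.06 CPM in LiK and 15.9, 17.5 and 16.8 CPM in LiKM, without overlap. Its log2 fold change was 1.24 (SE 0.17, edgeR adjusted p = 0.0175), or 2.37-fold. Slc6a9, the glycine carrier GLYT1, fell from 69.3, 79.3 and 64.5 CPM to 54.1, 41.7 and 43.5 CPM (−0.61, SE 0.14, edgeR adjusted p = 0.0494), and lost its call with upper quartile scaling (adjusted p = 0.0549), library totals (0.0795) and a filter that kept genes reaching 1 CPM in 3 libraries (0.0516). On GENCODE M21, exons of Ccdc24 on the opposite strand overlap 27.8% of the exon length of Slc6a9, but Ccdc24 did not pass the filter on low counts.

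The betaine carrier Slc6a12 missed the threshold narrowly, at 97.9, 83.9 and 86.6 CPM in LiK and 69.6, 60.8 and 51.2 CPM in LiKM, without overlap (log2 fold change −0.56, SE 0.14, edgeR adjusted p = 0.0598). DESeq2 and limma-voom called it lower (adjusted p = 0.0121 and 0.0416). Slc6a13 is also found in hepatocytes and overlapped between genotypes, with 248, 277 and 257 CPM in LiK and 221, 267 and 270 CPM in LiKM (−0.05, SE 0.12). The taurine carrier Slc6a6 varied from mouse to mouse, at 87.8, 115 and 168 CPM in LiK and 101, 153 and 136 CPM in LiKM (0.07, SE 0.26). The scarce carriers of this family were Slc6a7 (proline), Slc6a16 (no known substrate) and Slc6a4, with 70, 63 and 51 counts in all, and none was called.

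Enzymes of the same compounds were compared beside their carriers. Of 16 tested enzymes of taurine, creatine, betaine and glycine metabolism, edgeR called 1 higher and none lower, leaving 15. At an unadjusted p under 0.05 lay 4. Over all genes tested, 5.92% were called and 22.4% lay under that p. DESeq2 and limma-voom called the same number of these enzymes higher, and 2 and 1 lower. Gatm, which makes the precursor of creatine, rose from 5.59, 5.13 and 7.18 CPM to 10.6, 10.3 and 10.7 CPM (log2 fold change 0.81, SE 0.17, edgeR adjusted p = 0.038), while Gamt, which completes creatine synthesis in the liver, was not called (−0.30, SE 0.17) and lay lower in each LiKM mouse, at 177, 173 and 196 CPM in LiK and 169, 163 and 111 CPM in LiKM. Gnmt, the glycine methyltransferase, averaged 1325 CPM in LiK and 947 in LiKM (−0.49, SE 0.13, edgeR adjusted p = 0.071). Gldc, Amt and Gcsh, of the glycine cleavage system, overlapped between genotypes, as did Bhmt, which uses betaine (−0.08, SE 0.35).

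Of 20 tested glutamine and glutamate enzymes, edgeR called 0, with 10 at an unadjusted p under 0.05, against 5.92% and 22.4% of all genes tested. DESeq2 called 3 higher and 2 lower and limma-voom 1 higher and 2 lower. Glul, the glutamine synthetase of the hepatocytes around the central vein, had 871, 702 and 674 CPM in LiK and 499, 274 and 388 CPM in LiKM (log2 fold change −0.95, SE 0.23, edgeR adjusted p = 0.0587). In LiKM, Glul and Slc1a2 shared the same order, with LiKM 1 highest and LiKM 2 lowest. Cps1 and Ass1, the most abundant enzymes of the list, had log2 fold changes of −0.26 and −0.22 and were not called.

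**Figure D4:**
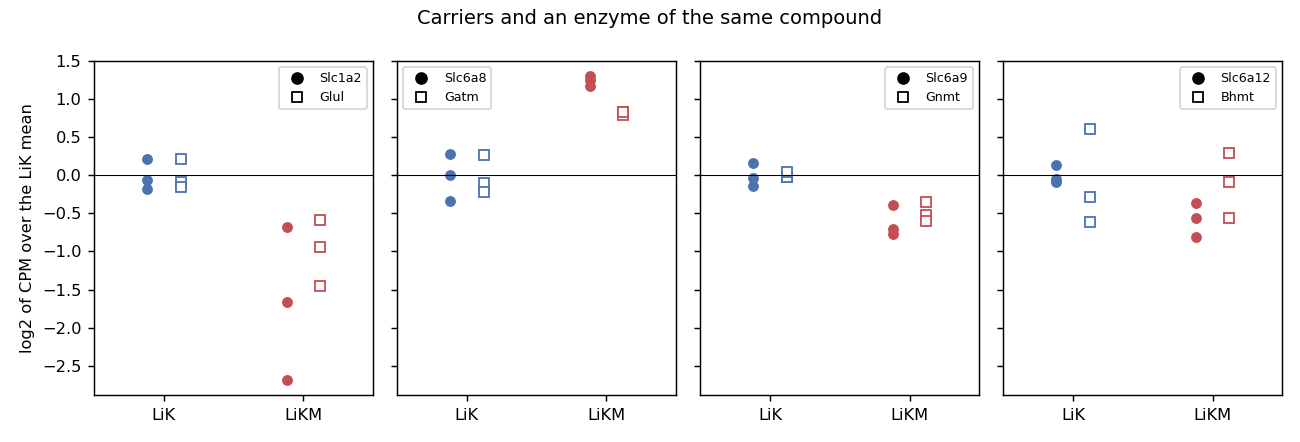
CPM of 4 carriers (filled circles) and of an enzyme of the same compound (open squares) in each mouse, as log2 of the value over the LiK mean (blue LiK, red LiKM). Both members of the pairs Slc1a2 with Glul, Slc6a8 with Gatm and Slc6a9 with Gnmt lie apart between genotypes in the same direction, whereas Bhmt overlaps beside Slc6a12. The pairs were chosen after the values were seen, and the creatine enzyme Gamt, which lies apart in the opposite direction to Slc6a8, and the glycine enzymes Gldc, Amt and Gcsh, which overlap, are not drawn.

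None of the 5 proton-coupled and facilitative carriers was called by edgeR. Slc36a1, the lysosomal and plasma membrane carrier of small neutral amino acids, had 43.6, 53.5 and 52.5 CPM in LiK and 55.2, 70.4 and 54.3 CPM in LiKM (log2 fold change 0.27, SE 0.14, not called), and Slc36a4 overlapped between genotypes (0.20, SE 0.22). Slc43a2, the carrier LAT4 of large neutral amino acids, lay at 8.86, 10.1 and 11.2 CPM in LiK and 14.4, 19.7 and 13.3 CPM in LiKM, without overlap (0.65, SE 0.19, edgeR adjusted p = 0.091), and was called by limma-voom (adjusted p = 0.0441). Its relative Slc43a1, LAT3, overlapped at 27.5, 18.3 and 17.2 CPM and then 21.9, 16.0 and 13.3 CPM (−0.30, SE 0.25). The purine carrier Slc43a3 overlapped at 27.9, 29.8 and 31.7 CPM and then 36.2, 36.9 and 28.3 CPM (0.18, SE 0.13).

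Amino acid and peptide carriers outside these families gave 1 edgeR call among 9 tested genes, with 2 at an unadjusted p under 0.05. Over all genes tested the shares were 5.92% and 22.4%. DESeq2 and limma-voom called 1 of these carriers higher and 1 lower each. Slc15a3, a peptide and histidine carrier of the endolysosomes of macrophages and dendritic cells, rose from 1.83, 2.57 and 3.82 CPM to 5.64, 8.35 and 11.5 CPM (log2 fold change 1.62, SE 0.35, edgeR adjusted p = 0.0435). The aromatic amino acid carrier Slc16a10 was not called, with means of 81.7 CPM in LiK and 74.3 in LiKM. The cystine exchanger Slc7a11 had 2, 1 and 0 counts in LiK and 0, 9 and 6 counts in LiKM, too few to be tested.

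Direction went with abundance. Among the 12 tested members with a mean of at least 50 CPM, 0 were called higher, 2 lower, and 10 log2 fold changes were negative, with a median of −0.44. Among the 23 below 50 CPM, 3 were called higher, 0 lower, and 17 were positive, with a median of 0.25. The 17 include Slc6a7 and Slc7a6, which entered the test through LiKM, where they were high, so the filter favoured their direction. Both also count in the median and in the rho below. Over all genes tested the split ran the same way, with medians of −0.13 for 2701 genes and 0.05 for 10836 genes. Spearman's rho between mean level and log2 fold change was −0.49 over the 35 tested members and −0.34 over all 13537 genes, given as a description across genes that share the same 6 libraries. The 50 CPM limit was chosen after the values were seen.

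**Figure D5:**
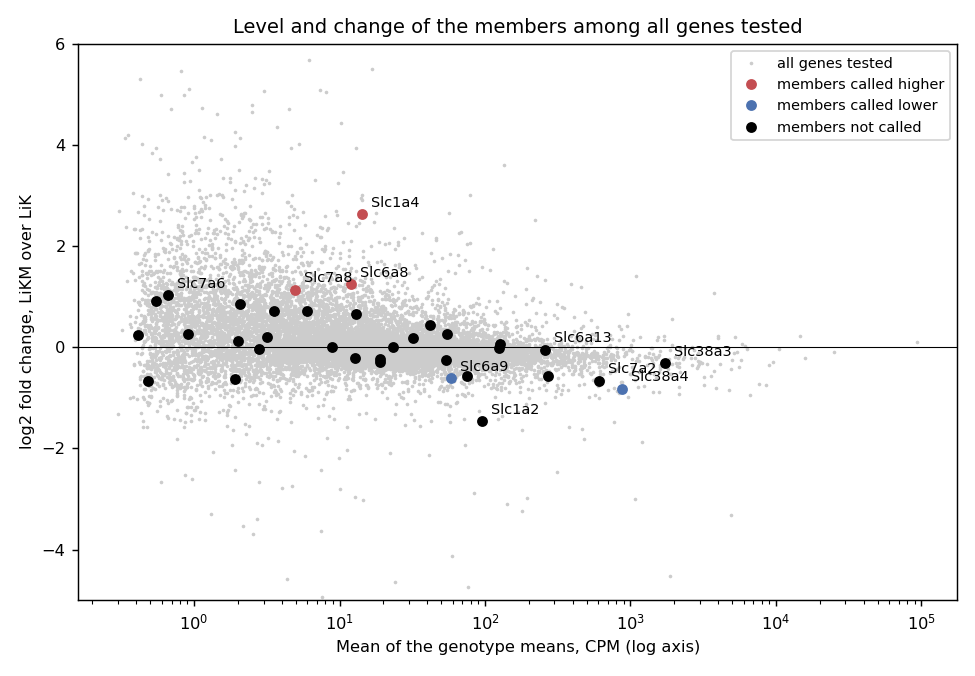
Log2 fold change of LiKM over LiK against mean CPM (log axis) for all 13537 genes tested (grey; 13 lie outside the vertical axis) and the 35 tested members (red called higher, blue called lower, black not called). The members called higher lie below 50 CPM and those called lower above it.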

How the data were processed

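RNA from 6 mouse livers was measured, 3 per genotype. Raw read counts per gene symbol were deposited by the authors in 1 table, for which the submitters' processing notes name featureCounts and FastQC 0.11.7. The kit was stranded, per the labels' protocols; aligner, genome build, annotation and strand setting were not given in the sources used here. Column names matched the animal codes in the titles, and the libraries were treated as separate animals.

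Counts were tested with edgeR 4.0.16 in R 4.3.3 (default expression filter, 13537 genes, TMM scaling, quasi-likelihood test, genotype only, Benjamini-Hochberg over all genes, called under 0.05). SEs came from the coefficient and its F statistic. CPM values are TMM-scaled. Alternatives used DESeq2 1.42.0, limma 3.58.1, other scalings and filters, a 1.5-fold threshold, a replicate block and omission of each library. The edgeR step was run on counts simulated from its own fitted dispersions, with changes placed only in well-counted genes. It gives no measure of how changes in scarce genes, or changes smaller than those placed, are found. Of 210 list memberships, 196 matched by symbol and 14 by a synonym in the RefSeq table. GENCODE M21 (GRCm38) gave exon lengths for all 41 members.

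By rule, every member could be named, with values in each library for called members, those at an unadjusted p under 0.05, the 2 most abundant of each family and the heteromeric chains. Of each list, up to 4 called genes or else the 2 most abundant were named. Atf4, Asns, Chac1, Wars, Pck2, Vldlr, Sesn2, Rragd, Gamt, Gldc, Amt, Gcsh, Gnmt, Bhmt, Glul, Slc16a10, Slc7a11 and Cltrn were named after their values were seen. Members and lists were chosen with earlier results of these data known. An allele that both genotypes share and 1 row outside the members are not reported here.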

Additional observations from a re-analysis of the deposited data

How the results depend on the processing

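The count of members called higher was 3 with all libraries and moved to 5 under scaling by library totals, 4 in limma-voom and 1 in the test against a 1.5-fold change, and ranged from 0 to 2 without single libraries. The count called lower was 2, and moved to 0 under upper quartile scaling, library totals and the 1.5-fold test (4, 4 and 2 members at an unadjusted p under 0.05), to 1 under a filter that kept genes reaching 1 CPM in 3 libraries, to 3 in limma-voom and to 4 in DESeq2's Wald test, and ranged from 0 to 2 without single libraries. Over all genes, the 692 called higher became 1039 under library totals, 1181 in DESeq2, 1063 in limma-voom and 115 in the 1.5-fold test, and 18 to 525 without single libraries; the 110 called lower became 63, 365, 260 and 12, and 1 to 101. Library totals moved the median log2 fold change of all genes to 0.16.

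With the replicate number as a block, 3 members were called higher, 1 lower (Slc6a12) and 166 of all genes lower. The titles give same-numbered mice only the number in common. Their deviations from the genotype means correlated at 0.27, −0.00 and 0.13, and LiK 2 correlated better with LiKM 3 (0.05) than with LiKM 2. The 0.27 and 0.13 were the highest values among all pairs of a LiK and a LiKM mouse. Whether same-numbered mice shared anything else was not tested.

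No called member changed direction in any of the 16 alternatives. Among the 30 tested members not called, the sign turned in 9, all with log2 fold changes between −0.24 and 0.27. Library totals, which lift all genes alike, turned Slc6a13 (0.12), Slc7a5 (0.12) and Slc38a10 (0.15), and upper quartile scaling turned Slc38a10 (0.0158). Slc38a6 and Slc38a7 turned under DESeq2's median ratio (−0.0174 and −0.0158), its Wald test (−0.0265 and −0.0242) and no filter (−0.0071 and −0.0059), and limma-voom turned Slc38a7 (−0.0695) and Slc7a14 (−0.0637). Without single libraries the ranges crossed 0 for Slc3a1 (−0.60 to 0.11), Slc6a13 (−0.12 to 0.0134), Slc6a6 (−0.13 to 0.35), Slc7a5 (−0.27 to 0.13), Slc38a10 (−0.12 to 0.0224), Slc38a6 (−0.0931 to 0.0764), Slc38a7 (−0.15 to 0.11), Slc7a1 (−0.0772 to 0.52) and Slc7a14 (−0.0811 to 0.35). The cause was not tested. Slc7a6 and Slc6a7 rest on at most 20 counts a library. Outlying libraries were not tested for, since groups of 3 are too small for that, and p-values measure only the spread between these mice.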
